A study of Mus musculus with 8 samples.

Results

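Foxf1, its neighbour Fendrr and 8 further genes of the lateral mesoderm and its derivatives (Foxf2, Foxl1, Foxc1, Foxc2, Tcf21, Hand1, Hand2 and Tbx5) were followed through poly(A) RNA sequencing of mouse stem cells labelled as Wdr68 knockout. The 10 genes were taken by symbol, out of 24318 symbols listed in each library's table, and all 10 were found, each as 1 entry. They were chosen by their FPKM in the 4 groups, with their high levels in differentiated knockout cells already known, so the difference between differentiated knockout and wild-type cells is given as a description with no test. E14 is a mouse embryonic stem cell line, and WDR68 is a WD-repeat protein encoded by the gene Dcaf7. By its title, the study asked what WDR68 does for the gene-activating form of Polycomb repressive complex 1 that contains AUTS2, and for differentiation.

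There were 4 groups of 2 libraries: neural progenitor cells (NPC) derived from Wdr68 knockout (KO) cells, NPC from wild-type E14 cells, undifferentiated Wdr68 KO embryonic stem cells (ESC), and undifferentiated wild-type E14 ESC. All 8 libraries were thus of the E14 line, and no treatment set the KO groups apart beside the knockout. ESC were grown with serum, LIF and inhibitors of Mek and GSK3, on embryonic fibroblast feeders or on gelatin. For NPC, embryoid bodies were formed in hanging drops of 500 cells for 2 days, kept in suspension for 2 days and then exposed to retinoic acid for 4 days, after cells from feeders had been passaged on gelatin. Whether the knockout is 1 clone, and whether the 2 libraries of a group came from separate cultures, is not given in the sources used here, so every p-value below reflects no more than library-to-library spread and this can be technical in origin. Levels are FPKM, the fragments assigned to a gene per kilobase of its transcript and normalised to library depth, a per-length unit that allows levels of different genes to be set side by side. The fragment numbers implied by the deposited intervals summed to between 5996677 and 7942644 per library.

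Lateral plate mesoderm is the outer sheet of the embryonic mesoderm, and its inner leaf gives rise to the heart, the vessels and the muscle and connective tissue around gut and lung. Foxf1 is a forkhead transcription factor of that inner leaf and a target of Hedgehog ligands made by the adjoining gut endoderm. Fendrr is a long non-coding RNA transcribed away from the Foxf1 start, known from mouse lateral mesoderm and linked there to Polycomb complexes. Retinoic acid treatment of embryoid bodies is used mainly to direct cells to neural fates.

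The knockout label and the cell labels were checked first. Dcaf7 averaged 8.68 ± 0.443 FPKM in KO-NPC against 28.4 ± 1.73 FPKM in E14-NPC, and 2.53 ± 0.383 FPKM in KO-ESC against 13.3 ± 1.27 FPKM in E14-ESC (SD, n = 2 each), with limma adjusted p of 0.000126 and 0.00109. Which part of the gene is deleted is not given in the sources used here and no protein level was read, so the remaining Dcaf7 RNA does not tell how much WDR68 was left. The neural factor Sox2 stood at 1.81 ± 0.934 FPKM in KO-NPC and 30.2 ± 0.311 FPKM in E14-NPC (adjusted p = 4.88e-05), and Pax6 at 2.69 ± 0.587 FPKM in KO-NPC and 14.3 ± 0.0814 FPKM in E14-NPC (adjusted p = 9.74e-05). The neuronal tubulin Tubb3 stood at 6.13 ± 2.42 FPKM in KO-NPC and 165.0 ± 3.70 FPKM in E14-NPC (adjusted p = 1.99e-05). The stem cell factors Pou5f1 and Nanog stood at 1.67 ± 0.385 and 1.98 ± 0.105 FPKM in KO-NPC and at 2.26 ± 0.765 and 2.11 ± 1.06 FPKM in E14-NPC, without passing the test (adjusted p of 0.268 and 0.962). Pou5f1 passed as lower without E14-NPC replicate 2 (0.0475), and Nanog passed as higher without E14-NPC replicate 1 (0.0277) and as lower without E14-NPC replicate 2 (0.0206). Over Dcaf7 and all markers read, 15 genes, limma called 9 lower and 2 higher in KO-NPC. Sox1, Fabp7, Hes5 and Zic1 were lower in both KO-NPC libraries. The progenitor marker Nes was at 25.4 and 22.4 FPKM in KO-NPC and 29.8 and 30.2 FPKM in E14-NPC. The stem cell marker Klf4 was higher in KO-NPC (4.09 and 2.98 against 2.01 and 1.93 FPKM). So was Tdgf1 (0.849 and 0.982 against 0.560 and 0 FPKM), while Esrrb was lower and Zfp42 overlapped. NPC below is the submitters' name for the stage, since the neural markers Sox2, Pax6 and Tubb3 were low in KO-NPC.

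The sequences that follow are shown because the 10 genes lie partly side by side and share transcription factor families, so that their starts can be read against each other. Windows of 300 bases, 250 before and 50 after the annotated start, were found for 5 of the 10 genes (Fendrr, Foxf2, Foxc1, Tcf21 and Hand2) in RefSeq, build GRCm38.p6. Both strands were searched for 3 motifs, and no 2 matches overlapped. The core recognised by forkhead factors was written as GTAAACA. That of the zinc-finger GATA family, which works with many of these genes in heart and gut, was AGATAA. For the Hedgehog effectors of the GLI family it was TGGGTGGTC. The Fendrr window is chr8:121083061-121083360 on the minus strand, the Tcf21 window chr10:22820094-22820393 on the minus strand and the Hand2 window chr8:57320733-57321032 on the plus strand. Each is written 5′ to 3′ along the gene, with capitals for a forkhead match in Fendrr and a GATA match, on either strand, in Tcf21 and Hand2.
Fendrr: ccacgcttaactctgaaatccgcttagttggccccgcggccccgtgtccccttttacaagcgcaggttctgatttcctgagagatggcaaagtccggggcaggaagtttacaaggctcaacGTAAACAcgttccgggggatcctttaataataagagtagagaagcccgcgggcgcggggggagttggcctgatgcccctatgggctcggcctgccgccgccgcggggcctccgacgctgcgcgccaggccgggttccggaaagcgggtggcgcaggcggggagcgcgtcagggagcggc
Tcf21: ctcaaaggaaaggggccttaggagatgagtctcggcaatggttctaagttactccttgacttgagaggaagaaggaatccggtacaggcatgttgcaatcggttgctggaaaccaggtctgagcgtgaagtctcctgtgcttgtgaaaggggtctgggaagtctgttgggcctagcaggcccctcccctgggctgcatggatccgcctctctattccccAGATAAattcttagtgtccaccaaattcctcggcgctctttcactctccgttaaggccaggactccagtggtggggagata
Hand2: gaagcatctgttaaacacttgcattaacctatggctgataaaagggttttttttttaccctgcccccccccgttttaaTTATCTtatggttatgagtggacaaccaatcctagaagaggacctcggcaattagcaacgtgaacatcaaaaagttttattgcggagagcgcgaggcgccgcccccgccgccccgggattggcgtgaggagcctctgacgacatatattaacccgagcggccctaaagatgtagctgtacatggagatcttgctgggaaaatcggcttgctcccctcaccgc
The forkhead match of Fendrr starts at base 122 of its window, and such a match is present in 3.65% of 32851 RefSeq promoter windows of the same length. The GATA matches start at base 220 for Tcf21 and base 79 for Hand2, and 11.2% of all windows hold 1 or more. No GLI core was found in the 5 windows, against 0.253% of all windows, and the Foxf2 and Foxc1 windows held none of the motifs searched. Fendrr, Foxf2 and Foxc1 have windows rich in CpG, with 31, 27 and 32 CpG and a GC content of 64.7%, 71.3% and 67.3%. Hand2 has 17 CpG and 50.3% GC, and Tcf21 has 8 CpG and 53.3% GC. Over all windows the median was 7 CpG and 52.7% GC, and 26.5% of windows held 20 or more CpG.

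Foxf1 was listed at 67.8 and 59.5 FPKM in the KO-NPC libraries and at 5.10 and 3.11 FPKM in the E14-NPC libraries. In KO-ESC it was at 0.0419 FPKM and listed at 0, and in E14-ESC at 0.0961 FPKM and listed at 0. Both KO-NPC libraries lay far above both E14-NPC libraries, and all ESC libraries were near 0. The means were 63.6 ± 5.89 and 4.11 ± 1.41 FPKM in KO-NPC and E14-NPC (SD, n = 2 each), a 15.5-fold ratio and a difference of 3.69 ± 0.19 (SE) on the log2(FPKM + 1) scale. Those means rest on 3369 implied fragments over the KO-NPC libraries and 201.2 over the E14-NPC libraries.

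Fendrr was at 26.1 and 25.7 FPKM in KO-NPC and at 1.82 and 1.01 FPKM in E14-NPC. In ESC it stayed between 0.0389 and 0.0877 FPKM in the 4 libraries. The KO-NPC libraries were nearly equal and both above E14-NPC. The ratio of means was 18.3-fold (25.9 ± 0.346 against 1.41 ± 0.574 FPKM), and the difference was 3.50 ± 0.17 on the log2 scale. Foxf1 exceeded Fendrr within each NPC library, by 2.59-fold and 2.32-fold in KO-NPC and by 2.80-fold and 3.08-fold in E14-NPC. The 2 genes were thus higher in KO-NPC by similar factors while their ratio to each other stayed between 2.32 and 3.08.

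Fendrr and Foxf1 are listed at chr8:123578781-123607010 and chr8:123608285-123612054 (mm9), 1275 bases apart and without overlap. Foxc2 follows at chr8:123640070-123642794, 28016 bases after the end of Foxf1, and Foxl1 at chr8:123651584-123654544, 8790 bases further on. Foxc2, a regulator of lymphatic vessels and mesenchyme, was at 24.2 and 18.6 FPKM in KO-NPC and at 8.23 and 5.94 FPKM in E14-NPC, and at or under 0.120 FPKM in ESC. Foxl1, a marker of the mesenchyme under the gut epithelium, was at 2.34 and 1.64 FPKM in KO-NPC, 0.890 and 0.519 FPKM in E14-NPC and between 0.0868 and 0.161 FPKM in ESC. Neither gene overlapped between the NPC genotypes. The Foxc2 means were 3.02-fold apart (difference 1.47 ± 0.19 on the log2 scale) and the Foxl1 means 2.82-fold (0.81 ± 0.16).

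The genes around this cluster, and around Foxf2 on chr13, were not all higher in KO-NPC. Of 14 other entries within 500 kb of the start of Foxf1 or of Foxf2, 8 were tested. In KO-NPC 1 rose, none fell and 7 did not pass. Over all tested genes 14.7% were called higher and 12.7% lower, so these counts are not read as a result about the loci. Mthfsd, which lies between Foxf1 and Foxc2, was at 17.3 and 16.7 FPKM in KO-NPC and at 14.3 and 13.8 FPKM in E14-NPC. Its difference was 0.26 ± 0.12 on the log2 scale (limma adjusted p = 0.166), smaller than that of each of the 4 genes around it, though no test compared them. Gins2, a replication factor at the edge of the window, rose by 0.56 ± 0.14 (adjusted p = 0.0243), a call that was lost without KO-NPC replicate 1 (adjusted p = 0.134) and without E14-NPC replicate 1 (adjusted p = 0.0951), and with only the 2 groups compared (0.0964). Cox4i1, Emc8 and Fbxo31 differed by 0.19, -0.04 and -0.16 (adjusted p of 0.26, 0.818 and 0.431), and Gmds beyond Foxc1 by 0.36 (adjusted p = 0.259). The overlapping entries Emc8-1190005i06rik and 1190005I06Rik, among which the estimate can be split, differed by 1.02 and -0.64 (adjusted p of 0.258 and 0.155), and both passed without KO-NPC replicate 1 (adjusted p of 0.0114 and 0.0110). Irf8, a myeloid transcription factor, was below the limit for testing, at 1.02 ± 0.404 FPKM in KO-NPC and 0.656 ± 0.106 FPKM in E14-NPC.

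**Figure D1:**
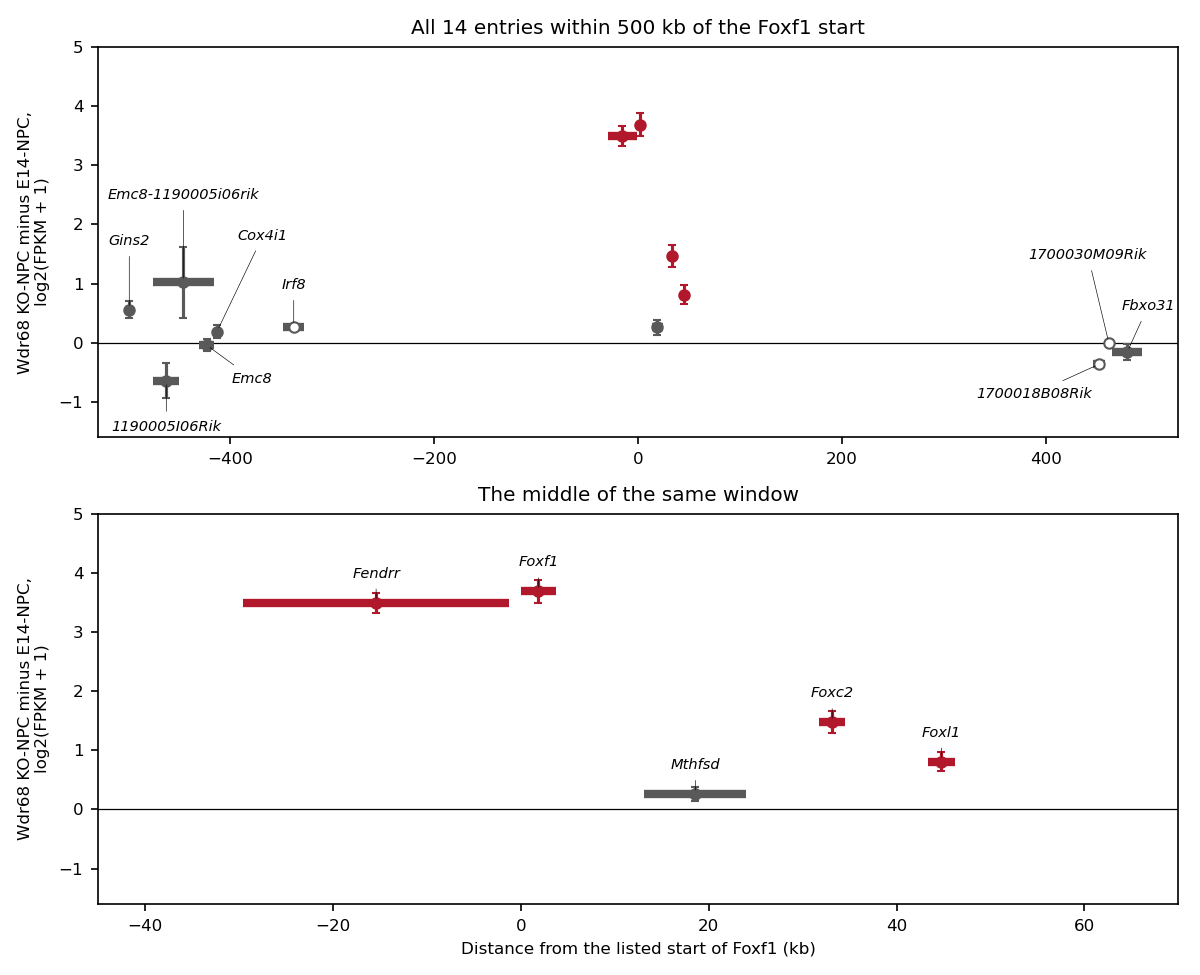
Difference between Wdr68 KO-NPC and E14-NPC on the log2(FPKM + 1) scale (vertical axis) against distance from the listed start of Foxf1 in kb (horizontal axis), for all 14 entries of the window (top) and its middle (bottom); horizontal bars are the listed intervals, vertical bars the limma standard error, red the described genes and open circles entries that were not tested. Fendrr and Foxf1 stand at 3.50 and 3.69, Foxc2 and Foxl1 at 1.47 and 0.81, and Mthfsd between them at 0.26.

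The second pair of forkhead genes, Foxf2 and Foxc1, is listed at chr13:31717684-31723275 and chr13:31898514-31902504 (mm9), 175239 bases apart. Foxf2, the close relative of Foxf1 in gut and craniofacial mesenchyme, was at 1.27 and 1.45 FPKM in KO-NPC, at 0.149 and 0.608 FPKM in E14-NPC and listed at 0 in all 4 ESC libraries. Foxc1, which acts with Foxc2 in mesenchyme and vessels, was at 3.77 and 4.04 FPKM in KO-NPC, at 2.23 and 1.46 FPKM in E14-NPC, and at 0 in 3 of the ESC libraries. The KO-NPC libraries were above the E14-NPC libraries for both genes. The differences were 0.80 ± 0.17 for Foxf2 and 0.80 ± 0.15 for Foxc1 on the log2 scale, from ratios of 3.60-fold and 2.12-fold. Foxf2 in E14-NPC rests on 15.9 implied fragments over both libraries.

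The basic helix-loop-helix factors differed widely in level. Tcf21, listed at chr10:22537078-22539934 and known from the epicardium and from lung and kidney mesenchyme, was at 22.5 and 18.9 FPKM in KO-NPC and 3.06 and 3.53 FPKM in E14-NPC. It was listed at 0 in all 4 ESC libraries, while Hand2 was at 0.0458 and 0.129 FPKM in KO-ESC and at 0.105 FPKM and 0 in E14-ESC. Hand2, a heart and limb factor at chr8:59799779-59803314, was at 13.0 and 8.80 FPKM in KO-NPC and 3.68 and 4.16 FPKM in E14-NPC. For both genes the KO-NPC libraries lay above the E14-NPC libraries, by 6.29-fold and 2.78-fold (differences of 2.34 ± 0.13 and 1.25 ± 0.18 on the log2 scale). Hand1, its relative in the heart and extraembryonic mesoderm at chr11:57642214-57645649, was at 0.305 and 0.475 FPKM in KO-NPC and 0.0949 and 0.0647 FPKM in E14-NPC. In ESC 3 libraries were at 0 and E14-ESC replicate 1 at 0.252 FPKM. The NPC values amount to 15.6 implied fragments in KO-NPC and 2.99 in E14-NPC, and Hand1 reached 1 FPKM in no library and was not tested. Tbx5, the T-box gene of the forelimb and heart at chr5:120284671-120335227, was at 3.18 and 2.27 FPKM in KO-NPC and at 1.28 and 1.90 FPKM in E14-NPC, and between 0 and 0.0675 FPKM in ESC. Its KO-NPC libraries were the closest to E14-NPC by ratio, with means 1.71-fold apart and a difference of 0.52 ± 0.17.

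All 10 genes had both KO-NPC libraries above both E14-NPC libraries, an arrangement seen in 36.6% of the 13318 genes tested. The median difference over the 10 was 1.03 on the log2 scale (0.36 for Hand1 to 3.69 for Foxf1), against 0.0484 over all tested genes. As the genes were chosen with this difference known, nothing is read from these values. Over all tested genes limma called 14.7% higher in KO-NPC (1962 genes) and 12.7% lower (1686 genes), or 1377 and 1969 with median-ratio scaling. Fewer cells of a type and less RNA per cell cannot be told apart in these bulk libraries.

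**Figure D2:**
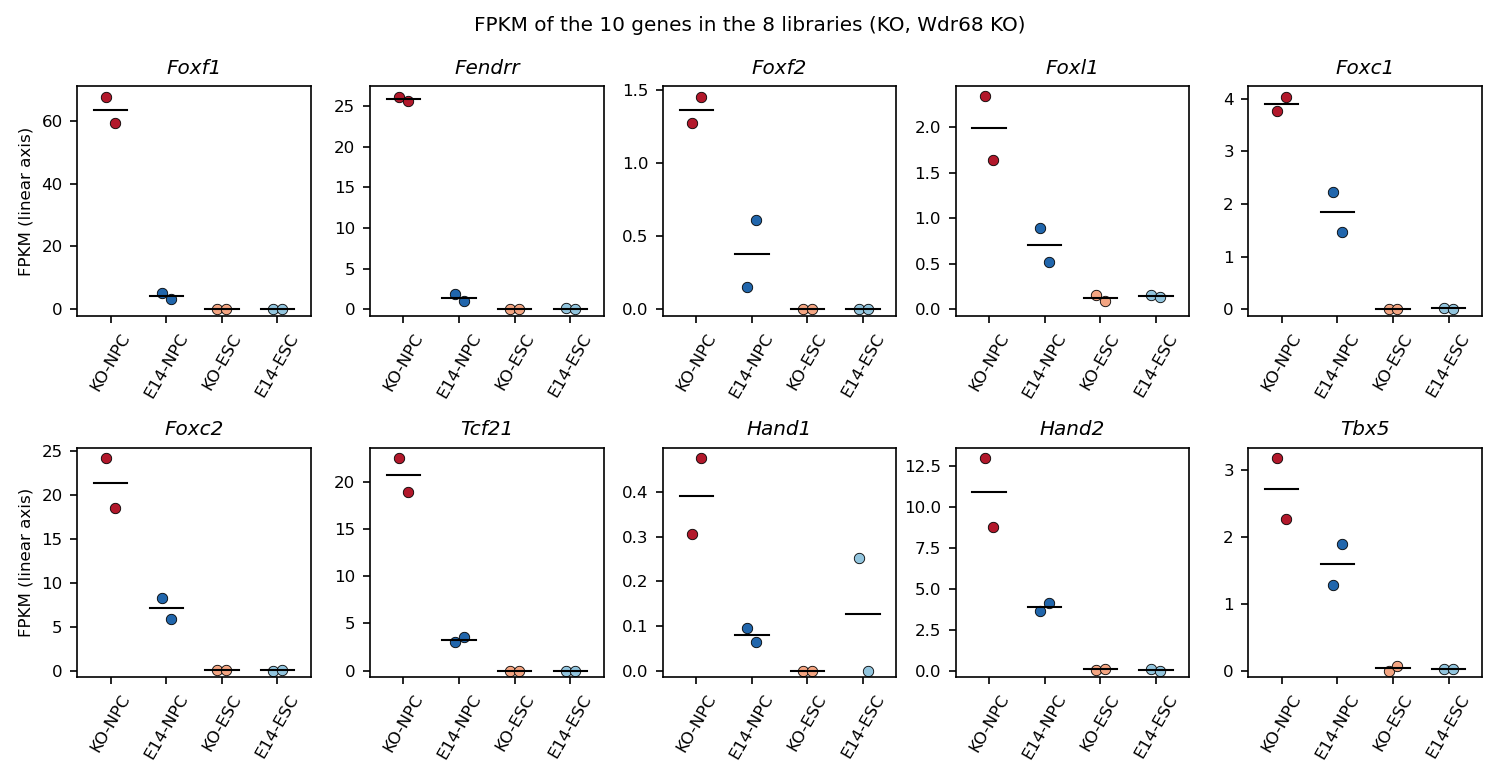
FPKM (vertical axis, linear, a separate range for each gene) of the 10 genes in Wdr68 KO-NPC, E14-NPC, Wdr68 KO-ESC and E14-ESC; points are single libraries and lines the mean of 2. The KO-NPC points lie above the E14-NPC points in every panel, and ESC points lie at or near 0, with 1 E14-ESC library of Hand1 at 0.252 FPKM the highest.

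The order of the genes by level differed between the NPC genotypes. In KO-NPC Foxf1 was first and Fendrr second, followed by Foxc2 (21.4 FPKM) and Tcf21 (20.7 FPKM), whose libraries overlapped, then Hand2, Foxc1, Tbx5 and Foxl1 (the last 2 overlapping), Foxf2 and Hand1. In E14-NPC Foxc2 was first at 7.08 FPKM, and Foxf1 and Hand2 overlapped at 4.11 and 3.92 FPKM. Tcf21 came next, with libraries that overlapped those of Foxf1 but not those of Hand2. Foxc1, Tbx5 and Fendrr followed with each neighbour in the order overlapping the next, then Foxl1 and Foxf2, which also overlapped, and Hand1. Foxf1 made up 41.2% and 42.1% of the summed FPKM of the 10 genes in KO-NPC, against 19.2% and 13.9% in E14-NPC. That sum was 164.5 and 141.3 FPKM in KO-NPC and 26.5 and 22.3 FPKM in E14-NPC. Among all forkhead genes of a library Foxf1 ranked 2 in both KO-NPC libraries, 14 and 15 in E14-NPC, 31 in both KO-ESC libraries, and 27 and 32 in E14-ESC. Foxc2 exceeded its unlinked paralog Foxc1 by 6.42-fold and 4.59-fold in KO-NPC and by 3.69-fold and 4.06-fold in E14-NPC.

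In undifferentiated cells none of the 10 genes was detectable above a few fragments in either genotype. Of the 20 values in KO-ESC 10 were listed at 0, and of the 20 in E14-ESC 9. The highest was 0.161 FPKM in KO-ESC (Foxl1) and 0.252 FPKM in E14-ESC (Hand1). All values together amounted to 19.9 implied fragments in KO-ESC and 20.8 in E14-ESC, with at most 4 for any gene in a library. A level of 3 fragments, the limit that a count of 0 allows, lay between 0.0702 and 0.319 FPKM depending on gene and library, counting error only. Between KO-ESC and E14-ESC, limma called 0 of the 9 tested genes, with 0 at an unadjusted p under 0.05 and the lowest adjusted p at 0.964, against 0.248% of all genes (33). The 9 genes passed the limit for testing through NPC libraries only and had been chosen by FPKM that included ESC. With ESC levels near 0 a call was hardly possible, so the 0 is no measure of a response and is not set against that share. The differences of those 9 lay between -0.04 and 0.05 with SE of 0.13 to 0.19 on the log2 scale, so that a difference between genotypes was not detectable at this depth.

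In wild-type cells 7 of the 10 genes were called higher in E14-NPC than in E14-ESC, as were 41.6% of all tested genes. The genes had been chosen by FPKM that included these groups, so the p-values are no independent support. E14-NPC were compared with E14-ESC by limma over all genes, sharing the E14-NPC libraries with the comparison that singled the genes out. Foxc2 rose by 2.92 ± 0.19 (SE) on the log2 scale, Foxf1 by 2.26 ± 0.19, Hand2 by 2.22 ± 0.18 and Tcf21 by 2.10 ± 0.13 (adjusted p of 8.44e-06, 3.67e-05, 2.98e-05 and 7.33e-06). Foxc1 rose by 1.47 ± 0.15, Tbx5 by 1.32 ± 0.17 and Fendrr by 1.16 ± 0.17 (adjusted p of 8.17e-05, 0.000286 and 0.000571). These 7 genes reached 1 FPKM in both E14-NPC libraries. Foxl1 and Foxf2 entered the test only through their level in KO-NPC and are not counted among them, with differences of 0.56 ± 0.16 (adjusted p = 0.0161) and 0.44 ± 0.17 (adjusted p = 0.0434). The Foxf2 call was lost without E14-NPC replicate 2 (adjusted p = 0.139) and without any 1 of 6 other libraries, namely both of KO-NPC, KO-ESC and E14-ESC, with adjusted p between 0.0547 and 0.122, as well as without the filter (0.0515) and with only the 2 groups compared (0.0905). The Foxl1 call was lost without E14-NPC replicate 1 (adjusted p = 0.0778) and without E14-ESC replicate 1 or 2 (adjusted p of 0.0546 and 0.0649). Hand1 differed by -0.05, with no test. The E14-NPC libraries lay above both E14-ESC libraries for 9 of the 10 genes, as they did for 48.7% of all tested genes. As the genes passed the limit for testing through NPC libraries, their number is no measure of a response.

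Knockout cells went through the same stages with larger differences between KO-NPC and KO-ESC for each of the 10 genes. Foxf1 differed by 5.98 on the log2 scale, Fendrr by 4.67, Tcf21 by 4.44, Foxc2 by 4.35 and Hand2 by 3.43. Foxc1, Tbx5, Foxl1, Foxf2 and Hand1 followed with 2.29, 1.84, 1.40, 1.24 and 0.47. The median was 2.86 in the knockout and 1.40 in E14. These differences use the KO-NPC libraries that singled the genes out and are not tested, and 41.6% of all genes were called higher in KO-NPC than in KO-ESC. Ranked by this difference Fendrr was second in the knockout and seventh in E14, while Foxc2 was first in E14.

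**Figure D3:**
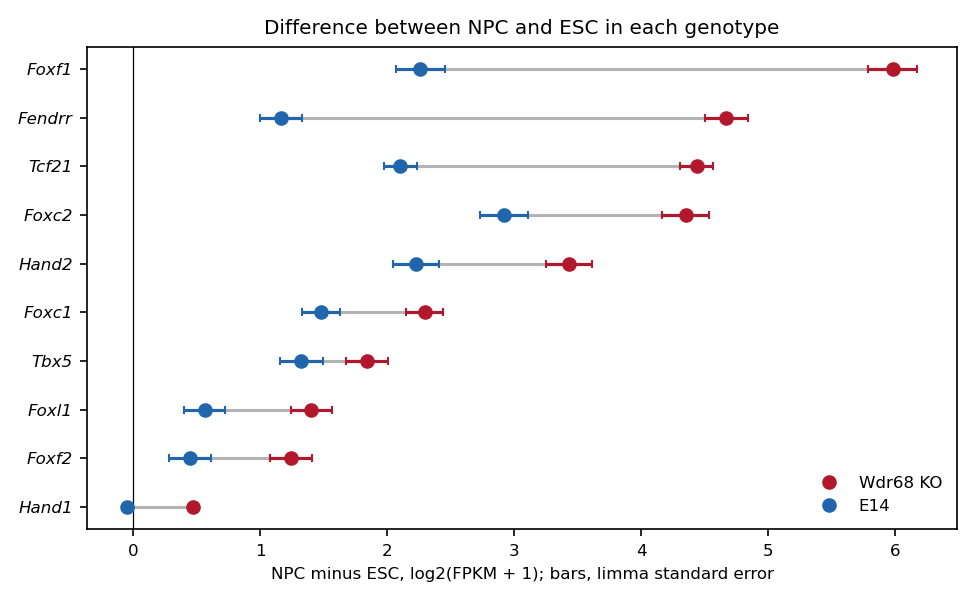
Difference between NPC and ESC on the log2(FPKM + 1) scale (horizontal axis) for each of the 10 genes (vertical axis), in Wdr68 KO (red) and E14 (blue); bars are the limma standard error, and Hand1 has none because it was not tested. Fendrr shows 4.67 in the knockout and 1.16 in E14, and Tbx5 1.84 and 1.32.

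Genes with a pattern like that of Foxf1 were ranked by the root-mean-square difference in log2(FPKM + 1) over the 8 libraries, after the mean of each gene was taken off. Of the genes outside the group, the chemokine Cxcl12 was nearest at 0.419, with 70.1 FPKM in KO-NPC and 9.40 FPKM in E14-NPC. Tmem176a (0.518), the tetraspanin gene Tspan11 (0.570), the beta-globin gene Hbb-b1 (0.572), the imprinted non-coding RNA Airn (0.673) and the matrix protein gene Edil3 (0.721) followed. Their means were 21.5 to 49.1 FPKM in KO-NPC and 3.35 to 8.70 FPKM in E14-NPC, and Hbb-b1 has near-identical copies among which reads can be split. Within the group Fendrr was the nearest to Foxf1 at 0.609, rank 5 among all tested genes, then Tcf21 at 0.667 (rank 6) and Foxc2 at 0.826 (rank 15). Hand2 stood at rank 71, Foxc1 at 426, Tbx5 at 888, Foxl1 at 1545 and Foxf2 at 2001. The measure takes off the mean of each gene but does not scale it, so genes of low level stand far from Foxf1 whatever the order of their groups.

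Hedgehog genes, the pathway upstream of Foxf1 in gut mesenchyme, were split in KO-NPC against E14-NPC. Of 14 listed genes 13 were tested, 3 rose, 4 fell and 6 did not pass, with a median of 0.16 on the log2 scale. Beside this and the lists below, 14.7% of all tested genes were called higher and 12.7% lower. List genes could pass the limit for testing through a single NPC group. Smad9, Barx1, Tnnt2, Tal1, Tbx4, Six2 and Apoa1 did so through KO-NPC, and Msx1, Uncx, Pax2, Lum and Fap through E14-NPC. The numbers that rose or fell are thus no measure of a response. Gli1, a transcription factor and target of the pathway, was at 13.9 and 15.5 FPKM in KO-NPC against 6.53 and 6.09 FPKM in E14-NPC and rose by 1.10 ± 0.11 (adjusted p = 0.000416). The ligand gene Ihh rose by 0.79 ± 0.23 (adjusted p = 0.0423). The Ihh call was lost without either library of KO-NPC, E14-NPC or KO-ESC (adjusted p between 0.0694 and 0.165), with median-ratio scaling (0.0582), without the filter (0.0745) and with a pseudocount of 0.1 (0.291). The coreceptor genes Boc, Cdon and Gas1 fell by 1.29, 1.17 and 0.74, and the transcription factor Gli2 by 0.70. With a pseudocount of 0.1 the calls of Boc and Gas1 were lost (adjusted p of 0.0814 and 0.0893). Shh, Ptch1 and Smo differed by 0.69, 0.45 and 0.27, with adjusted p of 0.0591, 0.0511 and 0.0501. Smo passed with the replicate block (0.0473), with only the 2 groups compared (0.0487) and with the highest entry per symbol (0.0498). Shh passed without E14-NPC replicate 1 (adjusted p = 0.00328), Ptch1 without KO-NPC replicate 1 (0.0224) and Smo without KO-ESC replicate 1 or 2 (0.048 and 0.0471).

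BMP genes, which pattern the lateral mesoderm, gave 6 that rose, 4 that fell and 9 that did not pass out of 19 tested (20 listed, median 0.25). The ligand genes Bmp4 and Bmp5 rose by 0.96 and 0.92, and Bmp7 fell by 0.90. The Bmp5 call was lost with a pseudocount of 0.1 (adjusted p = 0.111) and the Bmp4 call with only the 2 groups compared in the fit (adjusted p = 0.0661). Bambi, a decoy receptor, and Smad9, a signal transducer, rose by 1.42 ± 0.14 and 1.24 ± 0.13 (adjusted p of 0.000493 and 0.000607). Id4 and the antagonist Nog fell by 1.06 and 0.96, and the Nog call was lost without KO-NPC replicate 2 or E14-NPC replicate 1 (adjusted p of 0.0669 and 0.0754), with a pseudocount of 0.1 (0.0833) and with only the 2 groups compared (0.0697).

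Genes of visceral mesenchyme, the tissue in which Foxf1 acts, included 7 that rose, 0 that fell and 3 that did not pass out of 10 tested (13 listed, median 1.08). Over all tested genes 14.7% were called higher. Gata4, a zinc-finger factor of heart and gut mesoderm, was at 29.97 and 23.5 FPKM in KO-NPC against 3.50 and 1.82 FPKM in E14-NPC and rose by 2.95 ± 0.24 (adjusted p = 0.000208). Barx1, the homeobox gene of stomach mesenchyme, was at 9.15 and 8.01 FPKM in KO-NPC against 0.208 and 0.379 FPKM in E14-NPC, a rise of 2.89 ± 0.16 (adjusted p = 4.77e-05). Wnt5a, a secreted signal, rose by 1.89 ± 0.14, and Gata6, Pdgfra, Bmp4 and Osr1 rose by 1.40, 1.20, 0.96 and 0.84.

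Derivatives of the lateral mesoderm were read in the same way. Of the heart list 14 genes were listed, 8 tested and 8 rose (median 1.73), against 14.7% of all tested genes. The thin-filament genes Tnnt2 and Tnni1 and the progenitor factor Isl1 rose by 2.44 ± 0.11, 2.06 ± 0.15 and 1.98 ± 0.20. Tnnt2 entered the test only through KO-NPC and was at 0.267 and 0.242 FPKM in E14-NPC. Nkx2-5, the early heart factor, was at 0.159 FPKM in KO-NPC and 0.122 FPKM in E14-NPC and not tested. Of the endothelium and blood list 11 of 13 tested genes rose and 0 fell (16 listed, median 1.62). The embryonic globin genes Hba-x, Hbb-bh1 and Hbb-y, members of clusters of similar genes, rose by 3.30 ± 0.16, 3.24 ± 0.36 and 3.03 ± 0.19, and the blood and endothelial factors Tal1 and Gata2 by 1.96 and 1.62. The Hbb-bh1 call was lost with a pseudocount of 0.1 (adjusted p = 0.0567). Of 6 tested smooth muscle genes 1 rose and 5 did not pass (10 listed, median 0.34). That gene was Smtn, at 0.37 ± 0.11 (adjusted p = 0.041), and the call was lost without either library of KO-NPC, E14-NPC or KO-ESC (adjusted p between 0.0636 and 0.142), and with median-ratio scaling (0.103), a pseudocount of 0.1 (0.0519) or only the 2 groups compared (0.0715).

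Limb and body wall genes, from the outer leaf, gave 3 that rose, 5 that fell and 2 that did not pass out of 10 tested, with a median of -0.31. Tbx4, the hindlimb and lung relative of Tbx5, was at 3.47 and 3.13 FPKM in KO-NPC against 0.515 and 0.119 FPKM in E14-NPC and rose by 1.72 ± 0.18. Irx3 and Msx1 fell by 2.11 ± 0.18 and 1.87 ± 0.21. The other mesoderm lists were mixed too. Paraxial mesoderm gave 2 that rose, 1 that fell and 2 that did not pass out of 5 tested (10 listed, median 0.21), with Tbx18 up by 1.43 ± 0.18, Meox1 up by 0.93 ± 0.12 and Uncx down by 2.52 ± 0.13. Intermediate mesoderm gave 2 that rose, 4 that fell and 2 that did not pass out of 8 (median -1.12), with Six2 up by 2.45 ± 0.29 and Lhx1 and Pax2 down by 2.87 ± 0.16 and 2.47 ± 0.20. In E14-NPC Lhx1 was at 18.6 and 25.4 FPKM, Pax2 at 5.61 and 8.66 FPKM and Irx3 at 11.2 and 16.5 FPKM. These genes fell in KO-NPC alongside the neural markers Sox2, Pax6 and Tubb3. Which cells expressed them was not tested, so their fall is not read as a loss of mesoderm. Of early mesoderm genes 9 were listed, 2 tested and 0 called.

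**Figure D4:**
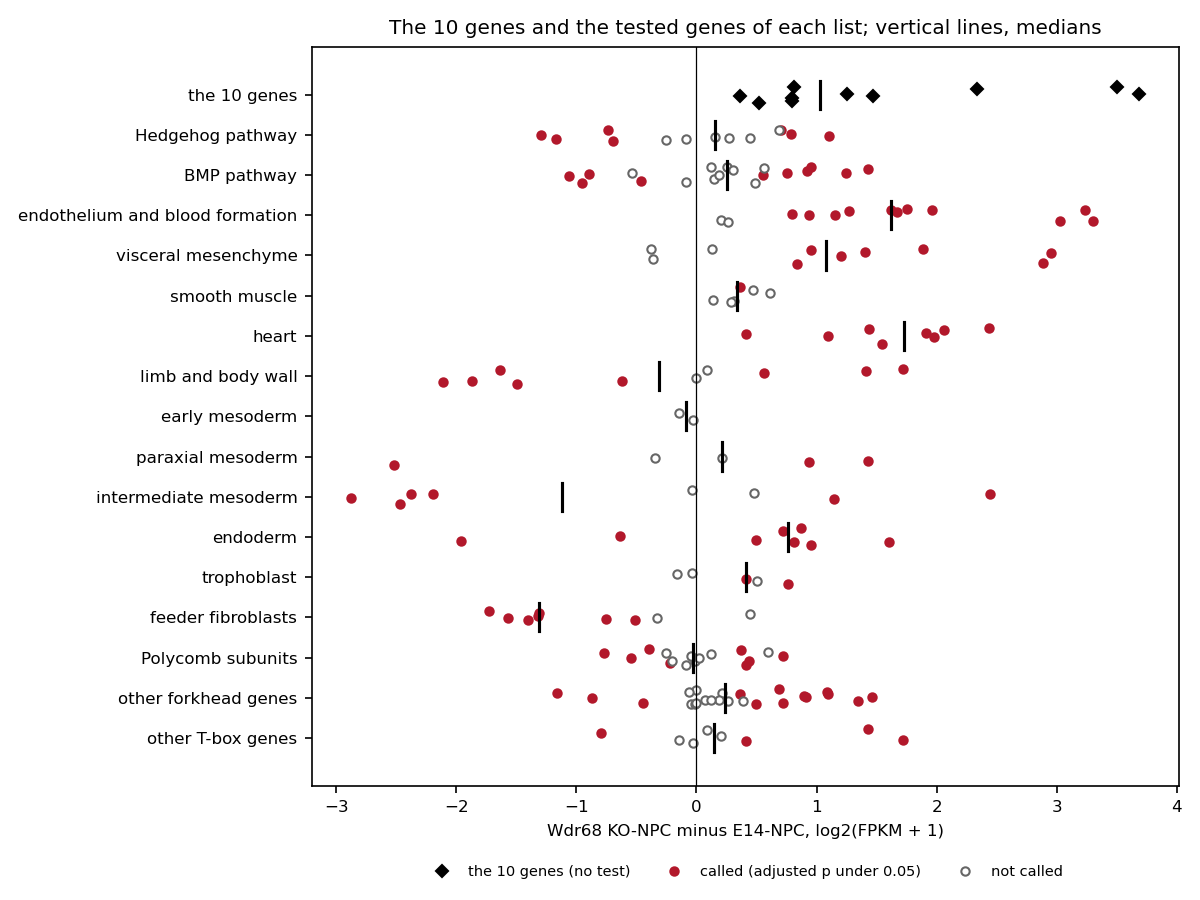
Difference between Wdr68 KO-NPC and E14-NPC on the log2(FPKM + 1) scale (horizontal axis) for the 10 genes (diamonds, no test) and the tested genes of each list (vertical axis; filled, adjusted p under 0.05; open, not passed; spread within a row is only for legibility), with the median of each row as a vertical line. The medians are 1.73 for heart, 1.62 for endothelium and blood, 1.08 for visceral mesenchyme, -1.12 for intermediate mesoderm and -1.31 for feeder fibroblasts.

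Relatives of the 10 genes by protein family were counted in the same way. Of 39 other forkhead genes listed 24 were tested, 10 rose, 3 fell and 11 did not pass (median 0.24). Among them Foxd2 and Foxp2 rose by 1.34 ± 0.14 and 1.09 ± 0.11. Of 16 other T-box genes 8 were tested, 3 rose, 1 fell and 4 did not pass (median 0.14), and the one that fell was Tbx2, by 0.79 ± 0.14. Polycomb subunit genes, the machinery that WDR68 is linked to, gave 4 that rose, 4 that fell and 8 that did not pass out of 16 (median -0.03). Auts2 stood at 7.87 and 8.20 FPKM in KO-NPC against 14.1 and 14.7 FPKM in E14-NPC and fell by 0.77 ± 0.12 (adjusted p = 0.0034). Rybp rose by 0.72 ± 0.08 and Suz12 by 0.44 ± 0.10. The Suz12 call was lost without KO-NPC replicate 1 or 2 or E14-NPC replicate 2 (adjusted p of 0.0773, 0.0574 and 0.0775).

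Markers of other cell types moved between the NPC genotypes alongside the 10 genes. The summed level of the 16 endothelium and blood genes was 893.7 to 1089 FPKM in KO-NPC and 101.0 to 130.9 FPKM in E14-NPC, where Etv2 and Gata1 were at 0. The 3 embryonic globin genes carried most of it, with 830.4 and 1028 FPKM in KO-NPC and 112.2 and 83.3 FPKM in E14-NPC, and the other 13 genes summed to 63.3 and 60.6 FPKM in KO-NPC and 18.8 and 17.8 FPKM in E14-NPC. The 14 heart genes summed to 52.3 to 53.8 FPKM in KO-NPC and 9.84 to 11.5 FPKM in E14-NPC, with Myl7 at 0 in E14-NPC. In undifferentiated cells both the heart sum and the sum of those 13 genes lay above E14-NPC. The heart sum was 18.4 to 22.7 FPKM in KO-ESC and 21.3 to 21.8 FPKM in E14-ESC. The 13 genes were at 28.5 and 28.4 FPKM in KO-ESC and 27.4 and 29.2 FPKM in E14-ESC. These sums are thus not specific to the cell types named. The ESC sums of the lists below were lower than in E14-NPC. Endoderm genes summed to 65.6 to 66.7 FPKM in KO-NPC and 39.0 to 45.0 FPKM in E14-NPC, and of 8 tested 6 rose and 2 fell (11 listed, median 0.77), with Apoa1 and Epcam up by 1.61 ± 0.25 and 0.96 ± 0.13 and Cxcr4 down by 1.96 ± 0.21. Of that sum Epcam alone gave 36.0 and 40.4 FPKM in KO-NPC and 17.0 and 21.6 FPKM in E14-NPC. Trophoblast genes summed to 198.0 to 223.6 FPKM in KO-NPC and 135.8 to 155.5 FPKM in E14-NPC, with Prl3d1 at 0 in both groups and Tpbpa at 0 in E14-NPC, and 2 of 5 tested rose (10 listed, median 0.41). Those were the keratin genes Krt8, by 0.76 ± 0.11, and Krt18, by 0.41 ± 0.10, a call lost without E14-NPC replicate 1 or KO-NPC replicate 2 (adjusted p of 0.112 and 0.130), with median-ratio scaling (0.0551) or with only the 2 groups compared (0.0685). Krt8 and Krt18 carried most of the trophoblast sum. In KO-NPC they were at 85.7 and 95.8 FPKM and at 100.4 and 112.3 FPKM. In E14-NPC they were at 49.2 and 57.2 FPKM and at 74.1 and 85.3 FPKM. Smooth muscle genes summed to 50.02 to 68.4 FPKM in KO-NPC and 44.5 to 49.8 FPKM in E14-NPC. Fibroblast genes, which would mark feeder cells, went the other way: 7 of 9 tested fell and 0 rose (10 listed, median -1.31), with summed levels of 328.8 to 360.3 FPKM in KO-NPC and 481.5 to 490.6 FPKM in E14-NPC, and Lum, Fap and Postn fell by 1.72 ± 0.20, 1.57 ± 0.10 and 1.32 ± 0.23. The Postn call was lost with only the 2 groups compared (adjusted p = 0.0585). The part of these cell types in the levels of the 10 genes was not tested. Between KO-ESC and E14-ESC no gene of any of these lists was called, Gli1 being the nearest among the named genes at adjusted p = 0.051.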

How the data were processed

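Poly(A) RNA of 8 libraries (4 groups of 2) was sequenced from a directional library kit. Per the submitters' processing notes the authors used TopHat2 2.1.1, Cufflinks 2.2.1 and mm9. The deposited values are FPKM per gene with a 95% interval, per the file headers, and no counts were used here. Whether strand entered the estimate is not given in the sources used here. Fragments behind a value were implied from the interval (upper bound as the FPKM plus 2 square-root errors of the count), and 68.0% to 72.5% of low values came within 0.05 of a whole number.

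Of 24854 entries with 24318 symbols, the 821 entries of 285 repeated symbols were summed and 12 symbols with a failed estimate left out. limma 3.58.1 (R 4.3.3) was fitted to log2(FPKM + 1) with 4 group means and a trend, over 13318 genes at 1 FPKM or more in at least 2 libraries. Tests were two-sided with Benjamini-Hochberg adjustment over all of them, called at 0.05. Differences on this scale understate the change of low genes. Values without a replicate number follow replicates 1 and 2. The fit was tested on simulated data. The 10 genes and the lists were chosen with earlier results of these data known. Named from each list were up to 3 called genes with the largest difference, mean FPKM of at least 2 in the higher group and no overlap, and other genes were named after their values were seen. Genes counted in the lists are named only in part, and the results of a few are not reported here. Alternatives tried were a pseudocount of 0.1, no filter, a minimum of 5 FPKM, median-ratio scaling, only the 2 groups compared, a replicate block, the highest entry per symbol, and leaving out each library.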

Additional observations from a re-analysis of the deposited data

Results flagged for a closer look

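For 12 of the genes named above both KO libraries lay on one side of both E14 libraries in NPC and on the opposite side in ESC. The difference between the stages was not tested, and 13.4% of the 13318 tested genes (1788) showed the same arrangement. The named genes were picked in part by their values, so the 12 are not set against that share. The markers Nes and Sox1 showed it too and are not among the 12. Gli1 differed by 1.10 in NPC and by -0.79 in ESC on the log2 scale, with 2.34 ± 0.147 FPKM in KO-ESC and 4.78 ± 0.0295 FPKM in E14-ESC. The 8 others of that kind were higher in KO-NPC and lower in KO-ESC than in E14: Ptch1 (0.45 and -0.20), Tal1 (1.96 and -0.34), Smad9 (1.24 and -0.23), Meox1 (0.93 and -0.35), Six2 (2.45 and -0.14), Epcam (0.96 and -0.34), Foxp2 (1.09 and -0.04) and Irf8 (0.27 and -0.23, not tested in either stage). Auts2 (-0.77 and 0.14), Nog (-0.96 and 0.23) and 1190005I06Rik (-0.64 and 0.32) were lower in KO-NPC and higher in KO-ESC. In ESC Smad9, Six2, Foxp2, Meox1, Irf8 and Nog had group means at or under 0.362 FPKM, and Tal1 at or under 0.405 FPKM. None of the 10 genes could show the arrangement, as the libraries of each overlapped between genotypes in ESC, at or near 0.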

How the results depend on the processing

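The 10 genes kept the sign of their difference between KO-NPC and E14-NPC, and between KO-NPC and KO-ESC, under all 15 alternatives. This was largely fixed in advance and is no support. For each gene both KO-NPC libraries lay above both libraries of the other group, so leaving out a library could not turn the sign. The filter, the replicate block and the groups in the fit do not enter the difference itself. Their median difference was 1.03 for KO-NPC against E14-NPC, 1.51 with a pseudocount of 0.1 and 0.92 to 1.25 when single libraries were left out. For KO-NPC against KO-ESC it was 2.86, and 5.61 with a pseudocount of 0.1. The number called in E14-NPC against E14-ESC was 9 with Foxf2 and Foxl1, and 5 with a minimum of 5 FPKM, where fewer of the genes are tested. Calls changed in 12 of 131 alternative tests of the 9 genes in that comparison, all for Foxf2 and Foxl1, in 0 of 131 in KO-ESC against E14-ESC, and in 51 of 1004 for 19 of 68 other named genes in KO-NPC against E14-NPC. The list genes called were 97, and 64 with a minimum of 5 FPKM, where fewer are tested. Genes called over the whole table in KO-ESC against E14-ESC were 33, but 15 with the replicate block, 3 with only the 2 groups compared and 10 to 18 without any 1 of the 8 libraries. In KO-NPC against E14-NPC they were 3648, and 2281 to 3340 without single libraries, lowest without KO-NPC replicate 1 (2281) or 2 (2418). Nanog was -0.02 and turned to 0.34 without E14-NPC replicate 1, and was -0.38 without E14-NPC replicate 2. The cause of the other changes was not tested. The deviations of same-numbered libraries had r of -0.0543 to 0.179 over the 6 pairs of groups. With 2 libraries per group this cannot exclude that the numbers pair samples, and the main fit used no pairing. Values of a few fragments have deposited intervals that are wide relative to their level, and how the uncertainty divides by level was not tested.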
